A study of Homo sapiens with 5 samples.

Results

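Double-stranded RNA sensors are the proteins by which a cell detects paired RNA strands, such as those of a replicating virus or of inverted repeats in its own transcripts. The 10 genes described here were taken by symbol from the 18257 genes of the count table: EIF2AK2, ADAR, DDX58, IFIH1, DHX58, MAVS, TLR3, OAS1, OAS2 and OAS3. Of these 10, 7 passed the expression filter (at least 1 CPM, a read count scaled to library size, in at least 2 libraries), as did 12234 genes in all. The 3 below it were DHX58, OAS1 and OAS2.

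The cells were HEK293 T-Rex FLAG:DICER1 FLP-IN, derived from human embryonic kidney and given a FLAG-tagged DICER1 copy. The T-REx Flp-In system places a transgene at 1 genomic site under a promoter that can be switched on. The labels do not say whether it was on, and all groups carry it. The groups were 1 mock library, 2 libraries with siRNAs against DICER1 (siRNA1 and siRNA2) and 2 with siRNAs against DROSHA (siRNA1 and siRNA2). All were sampled at 18 h, from poly(A) RNA. The labels do not say what the mock received beyond calling it the control, and do not state separate cultures for the libraries. The fit takes the 2 different siRNAs of a group as replicates. The p-values therefore cover the spread between these libraries, in which siRNA differences and technical spread cannot be told apart.

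The RNA helicases RIG-I (gene DDX58) and MDA5 (IFIH1) bind double-stranded RNA in the cytoplasm and signal through MAVS, an adaptor on mitochondria, to interferon genes. LGP2 (DHX58) is their relative without the signalling domains. PKR (EIF2AK2) is a kinase that halts translation by phosphorylating eIF2, and the OAS enzymes make oligoadenylates, a second messenger of the antiviral response. TLR3 senses double-stranded RNA in endosomes, and ADAR edits adenosine to inosine in paired RNA, which keeps a cell's own transcripts from being sensed. Most of these genes are themselves induced by interferon. DICER1 cuts double-stranded RNA into small RNAs, and DROSHA cuts primary microRNA transcripts in the nucleus. The siRNAs are themselves short duplexes. The series thus holds the levels of the sensors under siRNAs against either gene.

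A run of letters from the short elements through which interferon acts is shown first. It marks which of the 10 genes hold that run close to their start. RefSeq promoter windows (GRCh38.p14, 250 bases before to 50 after a start) were matched for 8 of the 10 genes, DDX58 under its present symbol RIGI. The searched run, GAAA followed after any 2 bases by a second GAAA, on both strands, were in the windows of EIF2AK2, IFIH1, TLR3 and OAS3, and in 3.57% of all 35116 windows. They were not in those of ADAR (3 windows), DDX58, MAVS or OAS1. Elements with other spacing or letters, or outside the window, were not searched, so a gene without a match may still hold one. DHX58 and OAS2 were not matched. Capitals mark the matches, which may overlap, and each stretch is printed 5′ to 3′ on the strand named.
EIF2AK2, chr2:37156967-37156996, minus strand: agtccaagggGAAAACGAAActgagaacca
IFIH1, chr2:162318821-162318850, plus strand: accgcggGAAACAGAAAAGGAAAgcgaatt
IFIH1, chr2:162318686-162318715, minus strand: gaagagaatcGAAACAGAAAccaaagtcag
TLR3, chr4:186069142-186069171, minus strand: cggcactctcGAAAGTGAAAgtaaagcttg
OAS3, chr12:112938321-112938350, plus strand: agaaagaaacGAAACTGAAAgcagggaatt
OAS3, chr12:112938452-112938481, plus strand: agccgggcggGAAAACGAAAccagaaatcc
IFIH1 had matches on both strands and OAS3 had a distal and a proximal one. A match is a run of letters, not a measured binding site.

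Total counts lay between 7620206 and 8736455 per library, so that 3 reads, the limit set by a count of 0, corresponded to between 0.343 and 0.394 CPM. The labels were checked on the targeted genes: DICER1 was at 30.5% and 27.9% of the mock in its siRNA libraries, and DROSHA at 21.5% and 21.9% in its own. All 8 HEK293 markers reached 1 CPM. Of 6 leukocyte, 3 endothelial and 4 hepatocyte markers none did, PTPRC and TTR being listed at 0 throughout, while 1 of 4 fibroblast markers (COL1A1) and 2 of 3 red cell genes (HBB and HBA1) did. The DROSHA libraries differed from each other more than the DICER1 libraries did. Over 1.5-fold differences between siRNA 1 and siRNA 2 were seen in 6.04% of tested genes for DROSHA and in 3.02% for DICER1. In bulk RNA, fewer cells that express a gene and less of its RNA per cell cannot be told apart.

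The sensors spanned a wide range of levels in these cells. Levels are compared between genes as CPM per kilobase of the gene's union exon length in GENCODE 29, and ranked among 18121 genes with a length. ADAR led with 45.1 ± 9.05 CPM per kilobase (SD, n = 5 libraries), at rank 1000. EIF2AK2 followed with 11.4 ± 0.600, at rank 4509, and MAVS with 7.71 ± 0.610, at rank 5915. The 3 ranges over libraries did not overlap each other or that of the next gene. The helicases stood lower: DDX58 had 1.72 ± 0.308 CPM per kilobase and IFIH1 1.29 ± 0.203, and their ranges, 1.27 to 2.11 and 0.973 to 1.48, overlapped. OAS3, the family member that responds to long duplexes, had 0.874 ± 0.0726 with a highest value of 0.965, just under the lowest of IFIH1. This order depends on the division by length. In CPM, the ranges of OAS3 (6.61 to 7.96) and IFIH1 (4.97 to 7.57) overlapped. TLR3, at 0.149 ± 0.0136, and DHX58, at 0.116 ± 0.0793, overlapped and were near the counting limit. OAS1 had 1 read in the mock and 0 elsewhere, and OAS2 was listed at 0 in all 5 libraries.

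**Figure D1:**
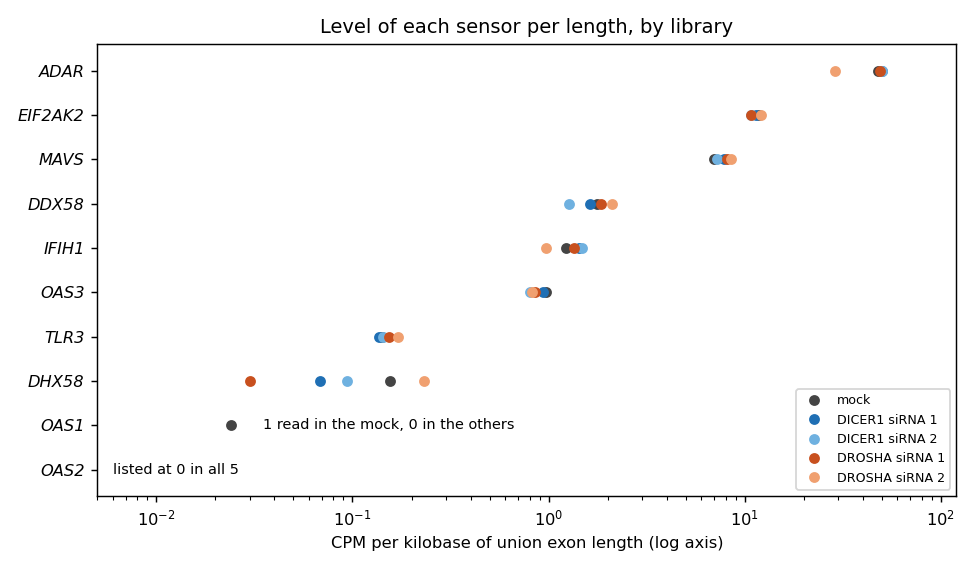
CPM per kilobase of union exon length (log axis) for each sensor, with 1 point per library. ADAR, EIF2AK2 and MAVS form the upper 3, DDX58, IFIH1 and OAS3 lie around 1, and OAS2 has no point because it is listed at 0.

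No sensor passed the test in any comparison. In edgeR's quasi-likelihood test, 0 of the 7 tested sensors were called (adjusted p under 0.05) in siRNA against mock, taken as the mean of the DICER1 and DROSHA groups, where 0.00817% of all tested genes were. Each knockdown against the mock also called 0 sensors and 0.00817% of all genes. The contrast between the knockdowns called 0 sensors and 0.0163% of all genes. The only genes called were the siRNA targets. DROSHA was called in siRNA against mock and in DROSHA against mock, and DICER1 in DICER1 against mock. Between the knockdowns, DICER1 and DROSHA were called. The test thus called no gene, sensor or other, beyond the targets. At an unadjusted p under 0.05, edgeR gave 0 sensors in all 4 contrasts, where the share of all genes was 3.69% for siRNA against mock, 5.46% for DICER1 against mock, 3.69% for DROSHA against mock and 8.34% between the knockdowns. DESeq2 called 0 sensors and gave 0 at an unadjusted p under 0.05, where in the same order it gave 83, 186, 80 and 376 of the 12234 genes. The smallest unadjusted edgeR p were 0.0548 (MAVS, DROSHA against mock) and 0.0597 (DDX58, between the knockdowns). With all libraries kept, raw library totals took the first to 0.0460, and no expression filter took the second to 0.0463. Fits with a library left out are not covered here. With the siRNA number as an added term, ADAR between the knockdowns was at 0.0318. The edgeR adjusted p of the sensors lay between 0.972 and 0.998 for siRNA against mock and between 0.611 and 0.952 for DICER1 against DROSHA. The mock is a single library that every comparison with it shares, and its spread was taken from the siRNA pairs.

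The sensors did not share a direction. TLR3 passed the filter only through the DROSHA libraries and is left out of these counts, a choice made after its values were seen. Against the mock, 1 of the other 6 tested sensors (MAVS) was higher in all 4 siRNA libraries, beside 19.4% of all tested genes, and 1 (OAS3) was lower in all 4, beside 19.0%. In the DICER1 libraries 3 were higher in both (36.7% of all tested genes) and 3 lower in both (36.4%). In the DROSHA libraries 2 were higher in both (31.5%) and 1 lower in both (32.4%). Between the knockdowns, 2 sensors were higher in both DICER1 libraries than in both DROSHA libraries (20.9% of all genes) and 2 lower (20.0%). The median log2 fold change of the 6 in siRNA against mock was -0.07, beside -0.0060 over all tested genes. With TLR3 it was also -0.07, and 0.014 without DICER1 siRNA 2. Counts out of 6 genes do not separate the sensors from these shares.

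**Figure D2:**
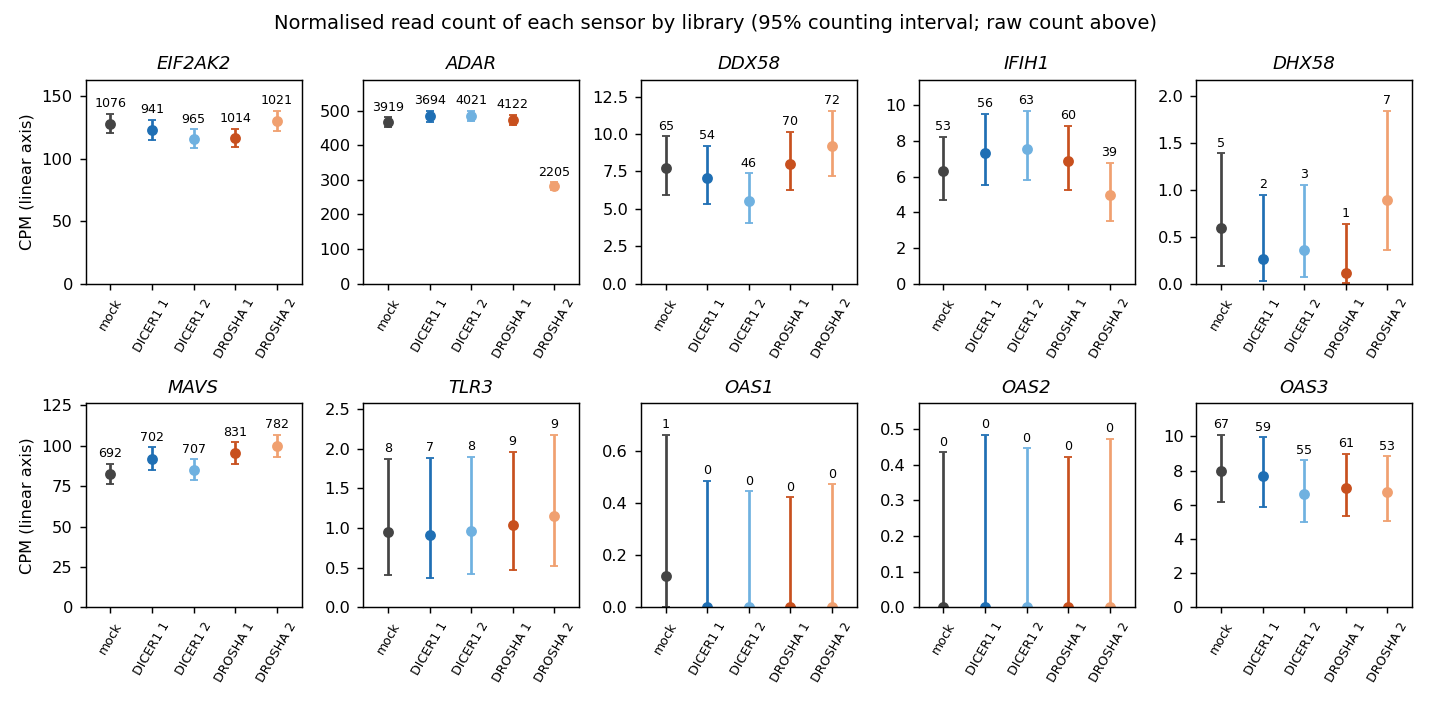
CPM of each sensor in each library on a linear axis, with the 95% Poisson interval of the count as the bar and the raw count printed above. ADAR in DROSHA siRNA 2, at 281 CPM, is the only value among the 7 tested sensors whose interval is clear of those of all other libraries of that gene.

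ADAR, the editing enzyme, had the largest departure from the mock among the tested sensors, and it was in 1 library. It had 466 CPM in the mock, 483 in both DICER1 libraries, 473 in DROSHA siRNA 1 and 281 in DROSHA siRNA 2. The first 4 libraries thus lay together and DROSHA siRNA 2 alone was low, at 60.3% of the mock. The counts behind these values were 3919, 3694, 4021, 4122 and 2205 reads, and the 95% counting intervals were 451 to 481 CPM in the mock and 269 to 293 CPM in DROSHA siRNA 2. Because the DROSHA pair disagreed, the group mean was 377 ± 136 CPM (SD, n = 2). The log2 fold change of DROSHA against mock was -0.30 ± 0.26 (SE), with an edgeR adjusted p of 0.979 and a 95% interval from -0.91 to 0.30.

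Which DROSHA library was kept decided the ADAR result. Without DROSHA siRNA 1 the log2 fold change was -0.73 ± 0.06 with an edgeR adjusted p of 0.00255, and ADAR was 1 of 225 called genes, 1.85% of those tested. Without DROSHA siRNA 2 it was 0.025 ± 0.059 (adjusted p = 0.968). In these fits the lone DROSHA library is assumed to vary like the DICER1 pair. DICER1 against DROSHA behaved the same way, at 0.36 ± 0.21 with all libraries (adjusted p = 0.683), 0.78 ± 0.06 without DROSHA siRNA 1 (adjusted p = 0.000700) and 0.029 without DROSHA siRNA 2. In DROSHA siRNA 2, ADAR lay at the 2.62 percentile of all tested genes, 321 genes being as low or lower. In siRNA against mock ADAR was at -0.13 ± 0.23, and without DROSHA siRNA 1 at -0.34 (edgeR adjusted p = 0.0484), where 0.378% of genes were called.

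**Figure D3:**
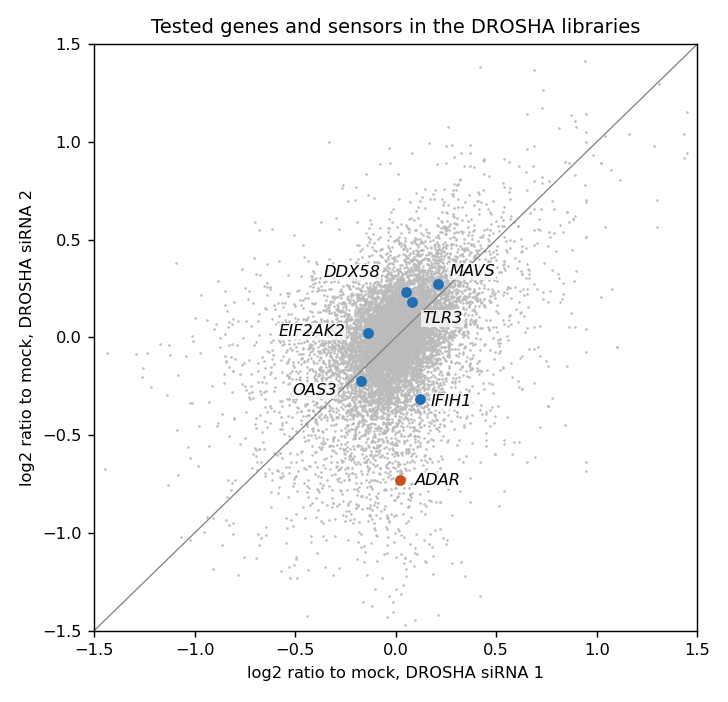
Each tested gene's log2 ratio to the mock (pseudocount 0.5 CPM) in DROSHA siRNA 1 (horizontal) and DROSHA siRNA 2 (vertical), with the 7 tested sensors in colour and the line of equal ratios. ADAR lies at 0.02 and -0.73, off the line, and 25 genes beyond 1.5 on either axis are not shown.

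The 3′ UTR of ADAR holds GTGACTT, the run of 7 letters whose carriers were lower in the DROSHA siRNA 2 library. Genes with it in their longest GENCODE 29 3′ UTR (1882 of 12083 scanned, 15.6%) had a median log2 ratio to the mock of -0.0996 in DROSHA siRNA 2, against 0.0125 for genes without it. In DROSHA siRNA 1 the medians were -0.0226 and -0.0003, in DICER1 siRNA 1 -0.0182 and 0.0008, and in DICER1 siRNA 2 -0.0028 and 0.0048. Of the 319 scanned genes as low as ADAR or lower in DROSHA siRNA 2, 45.5% held it. The run is 1 of 3 that earlier work chose with these libraries in view. The 319 genes were picked by their ratios in 1 of them, so the medians, the share and a match add no separate evidence. Carriers also had longer 3′ UTRs, with a median of 3101 against 1219 nucleotides. The other runs of the 3, ATAGAAT and AATCTAA, are not in the longest 3′ UTR of ADAR. Those of EIF2AK2 and OAS2 hold ATAGAAT, and those of MAVS and OAS3 hold AATCTAA. Besides ADAR, the longest 3′ UTRs of EIF2AK2, MAVS and TLR3 hold GTGACTT, at lengths of 8063, 9976 and 3196 bases. In DROSHA siRNA 2, EIF2AK2 and MAVS stood at 101.7% and 121.1% of the mock. TLR3 stood at 120.6%, from 9 reads against 8 in the mock, which does not resolve a direction. The sites are printed with the 7 letters in capitals to show what these 4 have in common and where their flanks differ.
ADAR 3′ UTR: ccttgataacaGTGACTTaacaatataca
EIF2AK2 3′ UTR: cccctcctgatGTGACTTaagaattttac
MAVS 3′ UTR: cgctcaaagccGTGACTTggcctactttg
TLR3 3′ UTR: gatttgcccaaGTGACTTgacttgtttga
In ADAR the site begins at base 2688 of a 2749-base 3′ UTR, close to its end, and 9 of 10 annotated coding transcripts hold it. In EIF2AK2 1 of 2 transcripts holds it, in MAVS 2 of 2, and in TLR3 1 of 2, with 5638, 6177 and 589 bases left to the end of the 3′ UTR. The part of this site in the ADAR value was not tested, and the siRNA sequences were not used here.

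Genes with a profile most like that of ADAR over the 4 log2 ratios to the mock were looked up after its values were seen. The 5 nearest by Euclidean distance were GALNT2 (0.0600), MED1 (0.0821), ZNF207 (0.0823), AZIN1 (0.0826) and TMEM110 (0.100). Each was between -0.65 and -0.78 in DROSHA siRNA 2 and between -0.05 and 0.08 in the other siRNA libraries. The genes were picked by these same ratios, so the ranges follow from the choice and add no separate evidence.

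EIF2AK2, which encodes the kinase PKR, had 128 CPM in the mock, 123 and 116 in the DICER1 libraries, and 116 and 130.1 in the DROSHA libraries. The mock lay inside the range of the siRNA libraries. Its log2 fold change was -0.10 ± 0.11 in DICER1 against mock and -0.05 ± 0.11 in DROSHA against mock, with edgeR adjusted p of 0.943 and 0.987. The 95% intervals ran from -0.35 to 0.16 and from -0.31 to 0.20, which on the linear scale is 0.782 to 1.12 and 0.806 to 1.15 times the mock. In DICER1 against DROSHA it was at -0.04, with an interval from -0.25 to 0.17.

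MAVS, the adaptor of both helicases, was the sensor with the smallest p in siRNA against mock. It had 82.2 CPM in the mock, 91.8 and 85.0 in the DICER1 libraries, and 95.3 and 99.6 in the DROSHA libraries. All 4 siRNA libraries were above the mock and both DROSHA libraries above both DICER1 libraries. The log2 fold change was 0.17 ± 0.10 in siRNA against mock (edgeR adjusted p = 0.972) and 0.25 ± 0.11 in DROSHA against mock (edgeR adjusted p = 0.979). In DICER1 against mock it was 0.10 ± 0.11, and in DICER1 against DROSHA -0.14 ± 0.09 with an interval from -0.34 to 0.06. The 5 genes nearest to MAVS in the 4 ratios were SPATS2, ATAD3B, ACOT8, RAB5B and ZNF3, at distances from 0.0297 to 0.0607.

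DDX58, which encodes RIG-I, had 7.72 CPM in the mock, 7.06 and 5.53 with DICER1 siRNAs, and 8.03 and 9.17 with DROSHA siRNAs. Both DICER1 libraries lay below the mock and both DROSHA libraries above it, without overlap. The difference between DICER1 and DROSHA was -0.45 ± 0.20 on the log2 scale (edgeR adjusted p = 0.611), with an interval from -0.93 to 0.02. The counts were 65, 54, 46, 70 and 72, and the 95% counting interval of each siRNA library overlapped that of the mock. The interval of DICER1 siRNA 2 ran from 4.05 to 7.38 CPM, below the mock value of 7.72. Leaving out DICER1 siRNA 2, its lowest library, turned siRNA against mock from -0.07 to 0.014 and moved the difference between the knockdowns to -0.28. Leaving out the other 3 siRNA libraries in turn gave -0.63 to -0.36 for that difference.

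IFIH1, which encodes MDA5, had 6.30 CPM in the mock, 7.32 and 7.57 with DICER1 siRNAs, and 6.88 and 4.97 with DROSHA siRNAs. The DICER1 libraries lay above the mock and the DROSHA libraries on either side of it, with DROSHA siRNA 2 the lowest. The log2 fold changes were 0.24 ± 0.26 in DICER1 against mock, -0.08 ± 0.27 in DROSHA against mock and 0.32 ± 0.21 between the knockdowns, with edgeR adjusted p of 0.940, 0.995 and 0.720. Without DROSHA siRNA 2 the second of these was 0.13 and the third 0.11. Without DROSHA siRNA 1 they were -0.34 and 0.58, with edgeR adjusted p of 0.671 and 0.270. The third relative, DHX58, had 5 reads in the mock, 2 and 3 with DICER1 siRNAs, and 1 and 7 with DROSHA siRNAs. Its CPM over the 4 siRNA libraries was 0.681 times that of the mock, with an exact 95% interval from 0.228 to 2.44 for counting error, which does not resolve a direction.

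**Figure D4:**
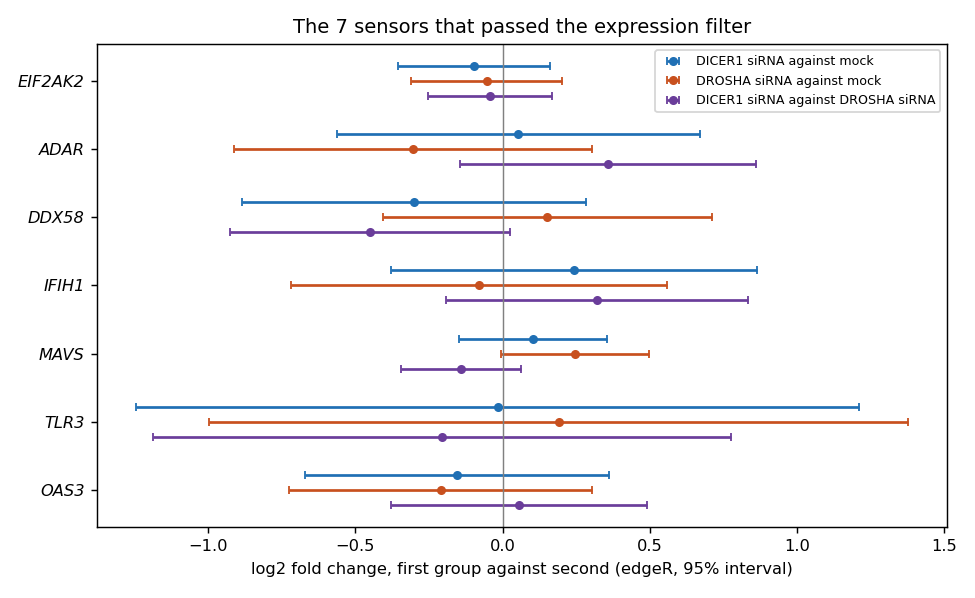
Log2 fold changes of the 7 tested sensors in edgeR for DICER1 against mock, DROSHA against mock and DICER1 against DROSHA, with 95% intervals as bars. All 21 intervals cross 0, and those of TLR3 are the widest.

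TLR3, the endosomal receptor, was at the edge of detection. It had 8 reads in the mock, 7 and 8 with DICER1 siRNAs, and 9 and 9 with DROSHA siRNAs, or between 0.916 and 1.15 CPM. It passed the filter only through the 2 DROSHA libraries. All 5 values lay within each other's counting intervals, and the log2 interval of siRNA against mock, from -1.02 to 1.19, leaves a 2-fold change in either direction undetectable at this depth. HEK293 cells are widely used as hosts for introduced Toll-like receptors because their own levels are low.

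Of the OAS enzymes, OAS3 alone was well detected. It had 7.96 CPM in the mock, 7.72 and 6.61 with DICER1 siRNAs, and 6.998 and 6.75 with DROSHA siRNAs. All 4 siRNA libraries were below the mock, by less than the counting error of the mock, whose interval was 6.17 to 10.1 CPM. The log2 fold change in siRNA against mock was -0.18 ± 0.20 (edgeR adjusted p = 0.972), with an interval from -0.65 to 0.29. OAS1 and OAS2 are described only as listed, with 1 read and 0 reads in all. OASL, a relative without synthase activity, had 1, 2, 1, 0 and 1 reads. Members of the OAS family resemble each other in sequence, and no source used here says how reads shared between them were counted.

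Of 11 interferon and cytokine genes in the table, which sensors switch on, 10 had at most 3 reads in any library. IFNB1, the first interferon made after sensing, was listed at 0 in all 5, as were IFNA1, IFNA2, IFNK, IL6 and TNF. CXCL10 had 0, 0, 1, 1 and 0 reads from the mock to DROSHA siRNA 2, and CCL5 had 0, 1, 0, 0 and 0. IL8, a chemokine, was the only one tested. It had 12 reads in the mock, 12 and 6 with DICER1 siRNAs and 15 and 24 with DROSHA siRNAs, at 0.19 ± 0.56 in siRNA against mock (edgeR adjusted p = 0.991).

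Interferon-stimulated genes report interferon signalling. Of 45, 28 were tested and 17 fell below the filter. Of the 28, 5 were higher and 5 lower than the mock in all 4 siRNA libraries, beside 19.4% and 19.0% of all tested genes, none was called, and their median log2 fold change was -0.02. With DICER1 siRNAs 9 were higher and 7 lower in both libraries (36.7% and 36.4% of all tested genes). With DROSHA siRNAs 6 were higher and 13 lower in both (31.5% and 32.4%), at a median of -0.05. ISG15, a ubiquitin-like protein, had 60 reads in the mock, 88 and 77 with DICER1 siRNAs and 72 and 61 with DROSHA siRNAs, at 0.35 ± 0.21 in siRNA against mock. IFIT1 had 38 reads in the mock and 32, 56, 53 and 46 with siRNAs. IFIT3 had 12 reads in the mock and 18, 13, 17 and 6, and IFIT2 had 5 in the mock and 12, 4, 4 and 3. MX1, an antiviral GTPase, had 3 in the mock and 6, 4, 3 and 1. These 5 genes thus stayed below 100 reads in each library, and none was higher in all 4 siRNA libraries other than ISG15.

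The 3 genes of this group with the smallest p in siRNA against mock were lower in all 4 siRNA libraries, and none passed the test. IFIT5, an RNA-binding relative of IFIT1, had 53.7 CPM in the mock and a log2 fold change of -0.35 ± 0.13 in siRNA against mock (edgeR adjusted p = 0.972). PLSCR1 stood at -0.29 ± 0.13 and UBE2L6, a conjugating enzyme for ISG15, at -0.50 ± 0.29. GBP1, PSMB8, PSMB9 and TAP1 were listed at 0 throughout. RNF5, a widely expressed ubiquitin ligase, was also listed at 0, so for genes at 0 these values say only how they are listed.

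The genes that hold the promoter letters shown above were described as a group. The 365 tested genes with them in a promoter window had a median log2 fold change of 0.0025 in siRNA against mock, against -0.0061 over the 10038 tested genes with a window. Of the 365, 19.2% were higher and 17.3% lower in all 4 siRNA libraries, against 19.4% and 18.9% of the 10038, and none was called by edgeR. Among them the sensors EIF2AK2, IFIH1, TLR3 and OAS3 were at -0.08, 0.08, 0.09 and -0.18.

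**Figure D5:**
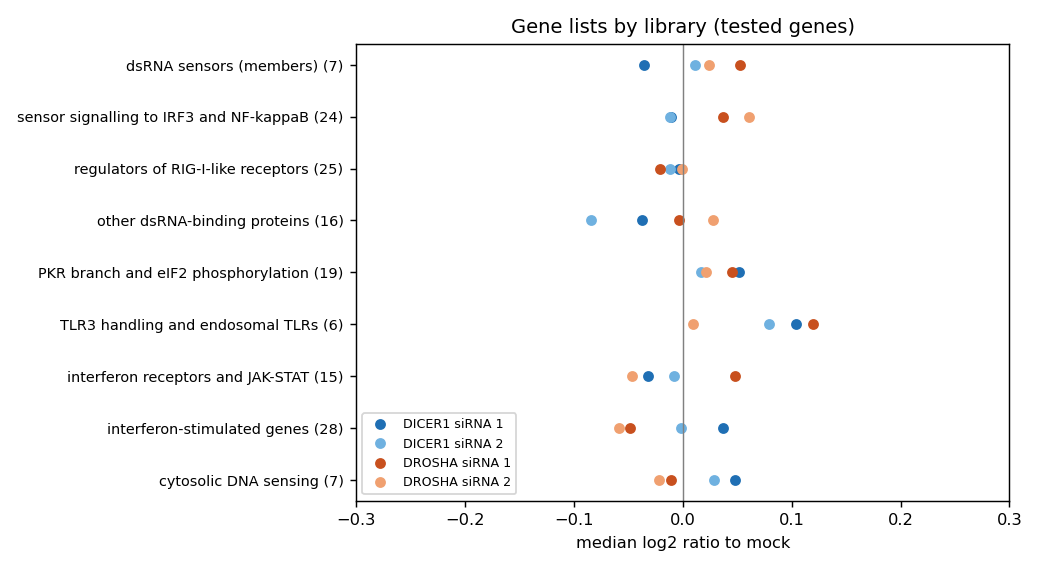
Median log2 ratio to the mock of the gene lists with at least 5 tested genes in each siRNA library, with the number of tested genes in brackets. All plotted medians lie between -0.08 and 0.12, and lists with fewer tested genes are not shown. Of the plotted lists, that of other double-stranded RNA-binding proteins reaches the lowest value, in DICER1 siRNA 2. The sensor list includes TLR3. In DICER1 siRNA 1 and 2 the sensor median is TLR3's own value, from 7 and 8 reads.

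Downstream of MAVS and TLR3, the kinases and adaptors that lead to IRF3 and NF-kappaB were expressed, 24 of 25 being tested. Of these, 5 were higher and 3 lower in all 4 siRNA libraries (19.4% and 19.0% of all tested genes), none was called, and the median log2 fold change in siRNA against mock was 0.03. CHUK, a kinase of the NF-kappaB arm, had 1078 reads in the mock, 601 and 526 with DICER1 siRNAs and 1173 and 1215 with DROSHA siRNAs, and was at -0.34 ± 0.14. CASP8 was at -0.21 ± 0.13, FADD at 0.23 ± 0.16 and TICAM1, the adaptor of TLR3, at 0.33 ± 0.24. Of 26 regulators of the RIG-I-like receptors, 25 were tested, 3 were higher and 5 lower in all 4 (19.4% and 19.0% of all tested genes), and the median was -0.02. Among them DDX60, a helicase that aids RIG-I, was at 0.54 ± 0.28 and RNF135, a ubiquitin ligase for RIG-I, at -0.32 ± 0.17. YWHAE, a 14-3-3 protein that carries RIG-I to the membrane, was at -0.15 ± 0.09, and DDX3X at -0.09 ± 0.06.

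The other double-stranded RNA-binding proteins included the gene with the smallest p of any list in siRNA against mock. Of 19, 16 were tested, 4 were higher and 4 lower in all 4 siRNA libraries (19.4% and 19.0% of all tested genes), and the median was -0.02. DGCR8, the partner of DROSHA, had 122 CPM in the mock, 129 and 132 with DICER1 siRNAs and 188 and 173 with DROSHA siRNAs. It was at 0.33 ± 0.09 in siRNA against mock (edgeR adjusted p = 0.972). STAU2, which binds paired stretches of mRNA, was at -0.34 ± 0.12, and ZNF346 at 0.20 ± 0.10. ADARB1, the second editing enzyme, was at 0.19 ± 0.11, with 45.8 CPM in the mock, and 385, 375, 447, 471 and 407 reads. In DROSHA siRNA 2, where ADAR was low, ADARB1 stood at 51.8 CPM, above its mock.

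In the PKR branch, which holds eIF2, its exchange factor and its kinases and phosphatases, all 19 genes were tested, with 4 higher and 1 lower in all 4 siRNA libraries (19.4% and 19.0% of all tested genes) and a median of 0.03. That median was -0.0032 without DROSHA siRNA 1. PPP1R15A, the inducible subunit of the eIF2 phosphatase, had 568 reads in the mock and 666, 747, 786 and 632 with siRNAs, at 0.36 ± 0.11 (edgeR adjusted p = 0.972). DNAJC3, an inhibitor of PKR, was at 0.21 ± 0.10, PPP1R15B at -0.20 ± 0.10 and DDIT3 at 0.31 ± 0.17. The kinase EIF2AK2 itself, described above, was at -0.08 ± 0.10.

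The interferon receptor and JAK-STAT genes had 15 tested members, 1 higher and 1 lower in all 4 (19.4% and 19.0% of all tested genes), and a median of 0.02. IFNAR2 was at 0.14 ± 0.15, IFNGR1 at -0.25 ± 0.14, IFNAR1 at -0.18 ± 0.13 and JAK1 at 0.08 ± 0.09. Of the genes around TLR3, 6 of 10 were tested, 2 were higher in all 4 and none lower (19.4% and 19.0% of all tested genes), at a median of 0.07. These were UNC93B1, which carries TLR3 to endosomes, at 0.24 ± 0.19, and CTSL1, a protease of endosomes, at 0.08 ± 0.10, while HSP90B1 was at 0.07 ± 0.05 and CD14 at 0.35 ± 0.40. TLR7 and TLR8, the sensors of single-stranded RNA, were listed at 0.

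For comparison, 7 of 11 genes of cytosolic DNA sensing were tested, with 1 higher and 2 lower in all 4 (19.4% and 19.0% of all tested genes) and a median of 0.01. RNASEH2B was at -0.15 ± 0.11, DDX41 at 0.10 ± 0.11, SAMHD1 at -0.07 ± 0.09 and TREX1 at 0.15 ± 0.26. None of the lists described here held a gene called by edgeR in any of the 4 comparisons. Both list counts and medians are descriptions of these libraries.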

How the data were processed

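The authors deposited raw read counts per gene symbol, whole numbers without normalization, for 18257 genes in 5 poly(A) libraries. The submitters' processing notes name CASAVA 1.8.2, STAR, HTSeq and edgeR with hg19, without roles. Strand setting and annotation release are not given in the sources used here. Column names gave the sample for all 5 columns, leaving 0 unused.

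Counts were fitted with edgeR 4.0.16 in R 4.3.3 (TMM, quasi-likelihood F test, group as the only term, all libraries, 2 residual degrees of freedom), with Benjamini-Hochberg adjustment over 12234 genes at 0.05. CPM use TMM-scaled totals. SE is the log2 fold change over the square root of F. Ratios to the mock in single libraries use log2(CPM + 0.5). Intervals and floors cover counting error only. DESeq2 1.42.0, other scalings, no filter, a siRNA-number block and leaving out each library were alternatives.

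Named genes are the 10 sensors, DICER1 and DROSHA, up to 4 genes per list with the smallest p in siRNA against mock, OASL, 8 interferon read-outs, and the 5 genes nearest to the sensor with the smallest p. COL1A1, HBB, HBA1, ADAR's nearest genes and the genes listed at 0 were added after their values were seen. Some named genes and 1 gene list are not reported here. The sensors, lists and 7-letter run were chosen with earlier results of these data known. GENCODE 29 (GRCh38) supplied lengths and 3′ UTRs, so only RefSeq promoter coordinates are given.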

Additional observations from a re-analysis of the deposited data

How the results depend on the processing

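Of 197 alternative values of the 7 tested sensors, 184 kept direction and side of the threshold, 3 became called (ADAR without DROSHA siRNA 1, given above) and 10 changed sign. With all genes, siRNA against mock called 1, DESeq2 called 2, and leaving out a library gave 0 to 46. DICER1 against mock called 1, 3 without the filter, 5 in DESeq2 and 0 without either DICER1 library. DROSHA against mock called 1, 225 without siRNA 1 and 4 without siRNA 2. DICER1 against DROSHA called 2, 12 without the filter, 24 in DESeq2, 4 and 1 without DICER1 siRNA 1 and 2, 427 and 18 without DROSHA siRNA 1 and 2, and 4 with the replicate block. The siRNA numbers name different molecules, and the deviations of same-numbered libraries correlated at 0.0246 across genes. From 2 pairs this does not decide whether same-numbered libraries share more than a number. No sensor was called with the block.

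With a library left out, siRNA against mock ranged from -0.34 to 0.039 for ADAR, from -0.17 to 0.014 for DDX58 and from -0.053 to 0.19 for IFIH1. DROSHA against mock ranged from -0.13 to 0.021 for EIF2AK2, from -0.73 to 0.025 for ADAR and from -0.34 to 0.13 for IFIH1. DICER1 against mock ranged from -0.051 to 0.014 for TLR3, which was 0.0023 with raw totals. DICER1 against DROSHA ranged from -0.12 to 0.037 for EIF2AK2 and from -0.059 to 0.17 for OAS3. The cause was not tested. With all libraries, the values whose sign turned lie within 1 SE of 0, except ADAR in DROSHA against mock. DHX58, OAS1, OAS2 and TLR3 are limited by depth.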
